A study of Mus musculus with 2 samples.

Results

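Cyclins and the cyclin-dependent kinases they switch on were described in KSL cells lacking the transcription factor NRF2 and in wild-type KSL cells. The 10 genes were the D-type cyclins Ccnd1, Ccnd2 and Ccnd3, the E-type cyclins Ccne1 and Ccne2, the A-type cyclin Ccna2, the B-type cyclin Ccnb2 and the kinases Cdk1, Cdk4 and Cdk6. They were taken by symbol from the 19938 genes whose probe sets carry exactly 1 gene symbol, and all 10 were measured, each by 1 probe set. KSL cells are lineage-negative marrow cells with c-Kit and Sca-1 on their surface, the fraction that holds the blood-forming stem cells and the earliest progenitors. The Nrf2 KO group was 1 RNA pool from the sorted cells of 5 mice, and the wild-type group was 1 such pool from 5 other mice. All mice were healthy, of C57BL/6J background, 8 to 10 weeks old and kept in a germ-free facility, and neither group received a treatment that the labels name. The sources used here name neither the Nrf2 allele nor the deleted part of the gene. The series title names the survival of haematopoietic stem cells as its question. RNA was amplified and each pool was hybridised to 1 Affymetrix Mouse Gene ST 1.0 array, so no difference below has a replicate check and none was tested.

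Cyclins are proteins whose levels swing through the cell division cycle, and each binds and activates particular cyclin-dependent kinases (CDKs). D-type cyclins with CDK4 or CDK6 answer growth signals in G1 phase and phosphorylate the retinoblastoma protein, which frees E2F transcription factors. Cyclin E then drives entry into S phase, cyclin A acts through S phase and G2, and cyclin B with CDK1 drives mitosis. Most haematopoietic stem cells rest outside the cycle, and CDK6 is known from mouse and human work to help them leave that state.

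Differences are the log2 intensity of the Nrf2 KO array minus that of the wild-type array. Genes past the level filter are the 9970 whose mean log2 intensity over the 2 arrays was at least 6.57, the median over genes. The targeted gene Nfe2l2 stood at 9.07 in Nrf2 KO and 9.16 in wild type, a difference of −0.09, so this probe set did not set the labelled genotypes apart. The sources used here do not say whether it covers the deleted part, and if it does not it checks nothing; the labels were taken as given. Among its classical targets past the filter, Gclc differed by −0.80, Gclm by −0.23, Srxn1 by −0.04 and Txnrd1 by −0.01. Hmox1 and Nqo1, at −0.68 and 0.24, did not pass the filter. Genes that mark mature neutrophils, cells outside the KSL gate, had less signal in the Nrf2 KO array. Of 12 mature neutrophil markers, 11 were below 0 and Ly6g, at 5.41 in Nrf2 KO and 4.90 in wild type, was above it. Ly6g and Mmp9 did not pass the filter, and Retnlg, Mmp8 and Cxcr2 passed only through their wild-type values, so the sizes of their differences are less sure. The summed linear intensity of the 12 was 6709 in Nrf2 KO and 15420 in wild type. Of 8 KSL markers 5 passed, 4 of them above 0, with Kit at 11.21 in Nrf2 KO and 10.93 in wild type, a difference of 0.28, and the sum of the 6 measured was 9542 in Nrf2 KO and 8254 in wild type. Ly6a, which encodes Sca-1, was not analysed here. Monocyte markers passed in 4 of 10 cases, all past 1.5-fold, 3 of them lower and 1 higher, where 6.64% of all genes past the filter differed by that much. Of the lower ones Ccl6, at 6.51 in Nrf2 KO and 8.02 in wild type, passed only through its wild-type value. Sums over the 9 monocyte markers measured were 1237 in Nrf2 KO and 1524 in wild type. Few markers of other lineages passed: 4 of 9 for B cells with a median of −0.01, 3 of 9 for T and NK cells with −0.48, 2 of 9 for erythroid cells with −0.24, and 4 of 7 for megakaryocytes with 0.10. Regardless of sign, the median sizes were 0.37, 0.48, 0.51 and 0.46 in that order. Over all genes past the filter the median size was 0.17. The B cell, erythroid and megakaryocyte markers that passed lay on both sides of 0, and the 3 T and NK markers lay below it. The part of all these markers in the values below was not tested. In pooled cells, fewer cells of a type and less RNA per cell cannot be told apart.

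The cyclin and kinase genes stood at nearly the same level in both pools, with Cdk6 as the main exception. Of the 10 genes, 5 were above 0 and 5 below, where 46.5% of all genes past the filter were above 0 and 52.9% below. The median difference over the 10 was −0.02, the same as the median of −0.02 over all genes past the filter, and turned to 0.00 under quantile normalization and 0.01 under loess. All 10 genes passed the filter. A difference of at least 1.5-fold was seen in 0 of the 10 genes, where 6.64% of all genes past the filter differed by that much, so a count of 0 among 10 is near that background. At least 2-fold apart were 0 of the 10 and 1.17% of all genes. A smaller size, 0.32 on the log2 scale, was reached by 1 of the 10, Cdk6, and by 23.8% of all genes. In 7 of the 10 the difference was smaller than 0.1 on the log2 scale, a range that held 31.9% of all genes past the filter. The median size of the difference, regardless of sign, was 0.06 over the 10 genes and 0.17 over all genes past the filter.

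**Figure D1:**
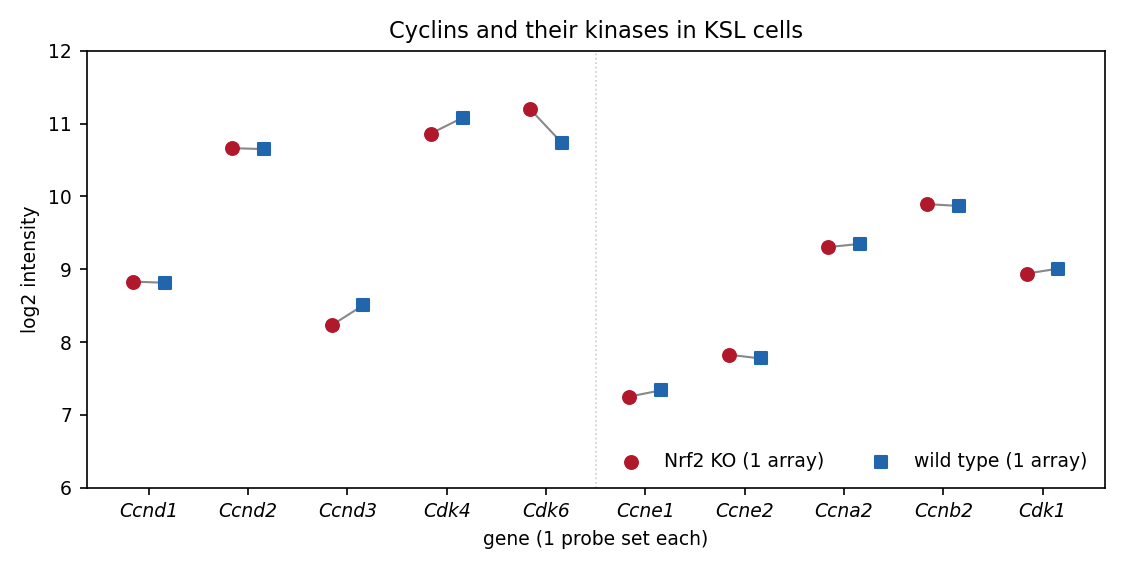
Log2 intensity of each cyclin and kinase gene (vertical axis) in the Nrf2 KO array (red circles) and the wild-type array (blue squares), 1 probe set per gene and 1 array per genotype, with a grey line joining the values of a gene. G1 genes stand left of the dotted line; Cdk6 has the steepest line, at 11.20 in Nrf2 KO and 10.73 in wild type. Heights of different genes are not comparable, because each comes from a different probe set.

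RefSeq promoter windows are printed for Cdk6 and Cdk4, the G1 kinases, whose differences had opposite signs. Those of Ccnb2 and Cdk1, a mitotic cyclin and its kinase that were level in both pools, are printed as well. Each window runs from 250 bases before to 50 bases after a RefSeq start, 5′ to 3′ on the gene's strand. For Cdk4, Ccnb2 and Cdk1 this start is the outer edge of the annotated gene, and for Cdk6 it lies 2889 bases downstream of that edge. Capitals mark every match to the searched motifs.
Cdk6 promoter, GRCm38.p6 chr5:3343643-3343942, plus strand: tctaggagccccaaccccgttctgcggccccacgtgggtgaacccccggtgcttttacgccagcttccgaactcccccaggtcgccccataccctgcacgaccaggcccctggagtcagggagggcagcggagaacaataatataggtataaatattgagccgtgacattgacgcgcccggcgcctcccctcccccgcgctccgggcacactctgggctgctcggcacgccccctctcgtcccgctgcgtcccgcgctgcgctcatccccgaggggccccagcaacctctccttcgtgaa
Cdk4 promoter, GRCm38.p6 chr10:127063285-127063584, plus strand: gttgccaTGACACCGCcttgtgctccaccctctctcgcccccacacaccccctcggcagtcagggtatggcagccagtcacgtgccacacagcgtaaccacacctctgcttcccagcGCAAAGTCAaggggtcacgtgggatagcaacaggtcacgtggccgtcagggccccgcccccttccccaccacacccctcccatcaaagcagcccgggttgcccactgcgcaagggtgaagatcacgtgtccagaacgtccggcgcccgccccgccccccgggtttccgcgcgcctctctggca
Ccnb2 promoter, GRCm38.p6 chr9:70421505-70421804, minus strand: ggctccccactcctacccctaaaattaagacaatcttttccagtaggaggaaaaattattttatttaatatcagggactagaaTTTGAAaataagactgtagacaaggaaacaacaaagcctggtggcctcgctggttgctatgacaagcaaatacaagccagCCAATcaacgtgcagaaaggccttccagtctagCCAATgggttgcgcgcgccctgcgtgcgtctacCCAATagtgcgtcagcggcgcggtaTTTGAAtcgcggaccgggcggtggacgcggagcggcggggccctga
Cdk1 promoter, GRCm38.p6 chr10:69352863-69353162, minus strand: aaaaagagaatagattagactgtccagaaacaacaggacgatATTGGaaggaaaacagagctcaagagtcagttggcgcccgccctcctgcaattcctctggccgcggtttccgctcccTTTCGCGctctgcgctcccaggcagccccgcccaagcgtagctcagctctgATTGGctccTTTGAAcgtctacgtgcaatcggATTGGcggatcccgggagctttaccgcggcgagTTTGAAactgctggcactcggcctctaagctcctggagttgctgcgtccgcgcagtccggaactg
The motifs were the cell cycle homology region TTTGAA, known from genes expressed in G2 and mitosis, the E2F motifs TTTCGCG and TTTGGCG, the CCAAT box bound by NF-Y, and the core of the antioxidant response element bound by NRF2, TGACNNNGC. Both strands were searched, and 0 matches overlapped another. Of the 10 genes, 6 had a window, and Ccnd3 had a second one.

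The Ccnb2 and Cdk1 windows held CCAAT boxes and cell cycle homology regions, and only that of Cdk1 held an E2F motif. Ccnb2 had CCAAT boxes at −87, −54 and −21 from the start, 33 bases apart each time, and cell cycle homology regions at −167 and 5, each position being that of the first base. Cdk1 had 3 CCAAT boxes on the opposite strand, at −208, −80 and −48, cell cycle homology regions at −71 and −15, and an E2F motif at −131. Over all 32851 windows, 17.9% held TTTGAA, 2.37% an E2F motif and 37.4% a CCAAT box on either strand. The antioxidant response element core was matched at −243 and −133 in the Cdk4 window and at −165 in 1 of the Ccnd3 windows. A match to this core was held by 12.4% of all windows. That Ccnd3 window has its start at the outer edge of the gene. The other Ccnd3 window has its start 88416 bases downstream of that edge and held a CCAAT box at −108. The windows of Cdk6 and Ccne1 held none of the searched letters; for Cdk6 the sequence around the upstream edge of the gene was not searched. A match is a description of the letters and does not show a bound site.

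The differences of the G1 kinases had opposite signs, and that of Cdk4 was of a common size. Cdk6 stood at 11.20 in Nrf2 KO and 10.73 in wild type, a difference of 0.46, or 1.38-fold higher in the Nrf2 KO array. Of all genes past the filter, 4.47% were at least as high, and 11.8% were at least as far from 0 in either direction. The scatter narrows with brightness: among 905 genes within 1 log2 unit of its level, differences had an SD of 0.21, and 3.54% lay as far from 0 as Cdk6. In the same arrays Kit was higher by 0.28 and the summed neutrophil marker intensity was 6709 in Nrf2 KO and 15420 in wild type; their part in the value of Cdk6 was not tested. Cdk4, which encodes the other kinase of the D-type cyclins, stood at 10.86 in Nrf2 KO and 11.08 in wild type. Its difference was −0.22, or 86.0% of the wild-type level, about the size of the SD of 0.21 among 897 genes of similar level. Of those 897 genes, 22.7% lay as far from 0 as Cdk4, as did 39.7% of all genes past the filter. The difference of Cdk6 exceeded that of Cdk4 by 0.68. For scale, a gap between a pair of probe sets of the same gene had an SD of 0.45 over 515 genes, or 0.24 when estimated robustly. This SD reflects how probes behave and holds none of the variation between mice, sorts or RNA amplifications.

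**Figure D2:**
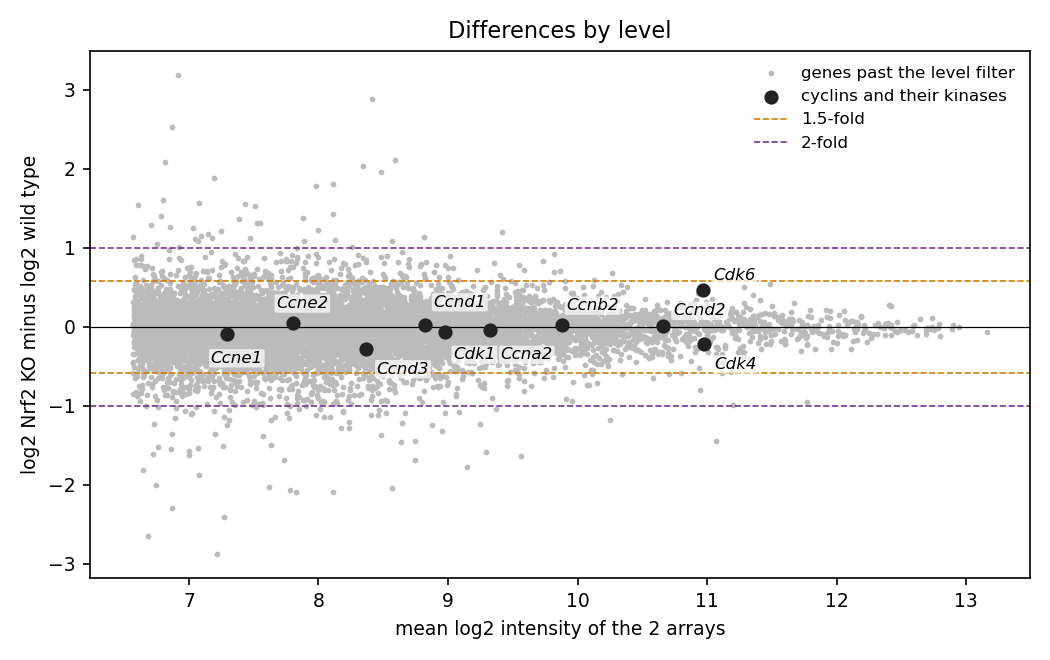
Difference between the Nrf2 KO and wild-type arrays (vertical axis, log2) against the mean log2 intensity of the 2 arrays (horizontal axis) for the 9970 genes past the level filter (grey), with the cyclin and kinase genes in black and dashed lines at 1.5-fold and 2-fold. Scatter narrows to the right; Cdk6 lies at the upper edge of its neighbours at 0.46, Cdk4 at −0.22 and Ccnd3 at −0.28 lie below 0, and the other 7 genes lie within 0.1 of it.

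Among the D-type cyclins, Ccnd3 was furthest from 0. Ccnd3, the D-type cyclin best known from mouse lymphocyte precursors and granulocytes, stood at 8.23 in Nrf2 KO and 8.51 in wild type. The difference was −0.28, and 29.8% of all genes past the filter lay at least as far from 0. Ccnd1, a widely used target of growth factor signalling, stood at 8.83 in Nrf2 KO and 8.82 in wild type, a difference of 0.02. Ccnd2, a D-type cyclin induced by cytokines in blood cells, stood at 10.66 in Nrf2 KO and 10.65 in wild type, a difference of 0.01. Ccnd3 lay 0.29 below each of the other D-type cyclins in its difference, within the SD of 0.45 for a gap between probe sets and above the robust estimate of 0.24.

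The E-type cyclins, which activate CDK2 at the start of S phase, were close to level. Ccne1 stood at 7.25 in Nrf2 KO and 7.34 in wild type, a difference of −0.09. Ccne2 stood at 7.83 in Nrf2 KO and 7.78 in wild type, a difference of 0.05. Of all genes past the filter, 72.1% lay at least as far from 0 as Ccne1 and 82.5% at least as far as Ccne2.

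The genes of S phase, G2 and mitosis were level as well. Ccna2, which activates CDK2 and CDK1 and is required by mouse haematopoietic stem cells, stood at 9.31 in Nrf2 KO and 9.35 in wild type, a difference of −0.04. Ccnb2, a mitotic partner of CDK1, stood at 9.89 in Nrf2 KO and 9.87 in wild type, a difference of 0.03. Cdk1, the kinase of mitosis, stood at 8.94 in Nrf2 KO and 9.01 in wild type, a difference of −0.07. Ccnb2 and Cdk1, whose promoters are printed above, differed from each other by 0.09 in this respect. Over the 5 genes of S phase and mitosis, including the E-type cyclins, differences ran from −0.09 to 0.05, whereas over the 5 genes of G1 they ran from −0.28 to 0.46. This contrast between the phases was seen after the values were known and rests on Cdk6, Cdk4 and Ccnd3.

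Cyclins outside these genes differed in both directions, and Ccnf was the furthest from 0. The median size of the difference, regardless of sign, was 0.20 for further cell cycle cyclins and 0.12 for other cyclins. Over all genes past the filter it was 0.17. Of 9 further cell cycle cyclins listed, 4 passed the filter, with 0 at least 1.5-fold apart and a median of −0.14, or −0.02 with no level filter. Ccnf, an F-box protein that marks substrates for degradation in G2, stood at 7.24 in Nrf2 KO and 6.67 in wild type, a difference of 0.57. Ccnj, Ccng2 and the p53 target Ccng1 differed by −0.22, −0.17 and −0.11. Ccnb1, the sister of Ccnb2, was not analysed here. Of 12 cyclins of transcription and other processes, 11 passed, 6 of them above 0 and 5 below, with a median of 0.03 and 0 at least 1.5-fold apart. The Mediator cyclin Ccnc differed by −0.36 and Ccny by −0.29, while Ccnyl1 differed by 0.29 and Ccnt2, a partner of CDK9 in transcription elongation, by 0.26.

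Of the other kinases, the partner of cyclins E and A and the kinase that activates CDKs were among the lower ones in the Nrf2 KO array. Cdk2 stood at 9.30 in Nrf2 KO and 9.71 in wild type, a difference of −0.42, or 1.33-fold lower. Cdk7, the catalytic subunit of the complex that activates other CDKs, averaged 6.80 in Nrf2 KO and 7.56 in wild type, a difference of −0.76. Its 2 probe sets gave −0.89 and −0.64, and the dimmer one was below the filter level of 6.57 in the Nrf2 KO array, at 5.99. The other parts of the Cdk7 complex were closer to level, with Ccnh at 0.03 and Mnat1 at −0.16, values looked up after that of Cdk7 was seen. Cdk18 differed by −0.43, while Cdk10 differed by 0.47 and Cdk17 by 0.26. Over the list, 14 of 21 kinases passed, 6 above 0 and 8 below, with 1 past 1.5-fold, Cdk7, and a median of −0.07. The background shares at 1.5-fold were 2.34% of genes higher and 4.3% lower.

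Proteins that switch CDKs on differed about as much as other genes. Their median size of difference, regardless of sign, was 0.17, the same as the 0.17 over all genes past the filter. Of 9 listed, 8 passed, 4 above 0 and 4 below, with 0 at least 1.5-fold apart and a median of −0.05. The small CDK-binding protein Cks1b stood at 11.08 in Nrf2 KO and 11.40 in wild type, a difference of −0.32. The kinase chaperone Cdc37, which folds CDK4 and CDK6, differed by −0.18. The phosphatases Cdc25b and Cdc25c, which remove inhibitory phosphates from CDKs, differed by 0.27 and 0.29.

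Among the brakes past the filter, Cdkn2c and Cdkn2d had the lowest differences. Cdkn2c, which encodes the CDK4 and CDK6 inhibitor p18INK4C, stood at 6.31 in Nrf2 KO and 7.84 in wild type, a difference of −1.53. The Nrf2 KO value lies below the filter level, which makes the size less sure. Cdkn2d, which encodes a related inhibitor, stood at 6.70 in Nrf2 KO and 7.21 in wild type, a difference of −0.51. The remaining related inhibitors in the list, Cdkn2a and Cdkn2b, did not pass and differed by −0.05 and 0. Cdkn1b and Cdkn1c, CDK inhibitors of another family, passed and differed by 0.10 and −0.12. Cdkn3 and Pkmyt1, a kinase that holds CDK1 inactive, differed by 0.22 and 0.18. Of 10 brakes listed, 7 passed, 4 above 0 and 3 below, with a median of 0.10, or 0 with no level filter. Past 1.5-fold was 1, which was lower, beside 4.3% of all genes past the filter lower by at least that much.

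Genes that read out or degrade cyclins varied in both directions. Of 19 pocket protein and E2F genes, 17 passed, 10 above 0 and 7 below, with a median of 0.07. Past 1.5-fold were 2, both higher, a count that fell to 1 under some settings given below. Of all genes past the filter, 2.34% were higher and 4.3% lower by at least that much. Mybl2, a transcription factor of the G2 and mitosis programme, stood at 8.37 in Nrf2 KO and 7.74 in wild type, a difference of 0.63. E2f3, an activator of S phase genes, averaged 8.40 in Nrf2 KO and 7.81 in wild type, a difference of 0.59, and its 2 probe sets gave 0.74 and 0.44. The pocket protein Rbl2 differed by −0.28 and Lin9, a partner of Mybl2, by −0.23. Of 27 names in the degradation list, 26 were measured and passed, 12 above 0 and 13 below, with 2 past 1.5-fold, both lower, and a median of −0.02, whose sign turned between settings, up to 0.04. The F-box gene Fbxo4, whose product has been linked to the breakdown of cyclin D1, stood at 7.26 in Nrf2 KO and 8.14 in wild type, a difference of −0.88. The ubiquitin ligase subunit Rbx1 differed by −0.70, with −0.64 and −0.75 from its 2 probe sets. Fzr1, which directs the anaphase-promoting complex to mitotic cyclins, differed by 0.55, and Ube2s, an enzyme that extends ubiquitin chains for that complex, by 0.41.

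Factors known to raise or restrain D-type cyclins had a median of −0.05 over 15 genes, all of which passed, with 6 above 0 and 8 below. The kinase Akt1, at 8.02 in Nrf2 KO and 8.67 in wild type, was the 1 gene at least 1.5-fold lower, with a difference of −0.64, and 0 were higher by that much. Fos, a subunit of the AP-1 factor, differed by −0.39, while Stat5a and Mtor differed by 0.19 and 0.16. Over all of these lists together, 102 of 122 genes passed, 7 were past 1.5-fold, 2 of them higher and 5 lower, with a median of −0.01, beside 6.64% of all genes past that size in either direction.

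**Figure D3:**
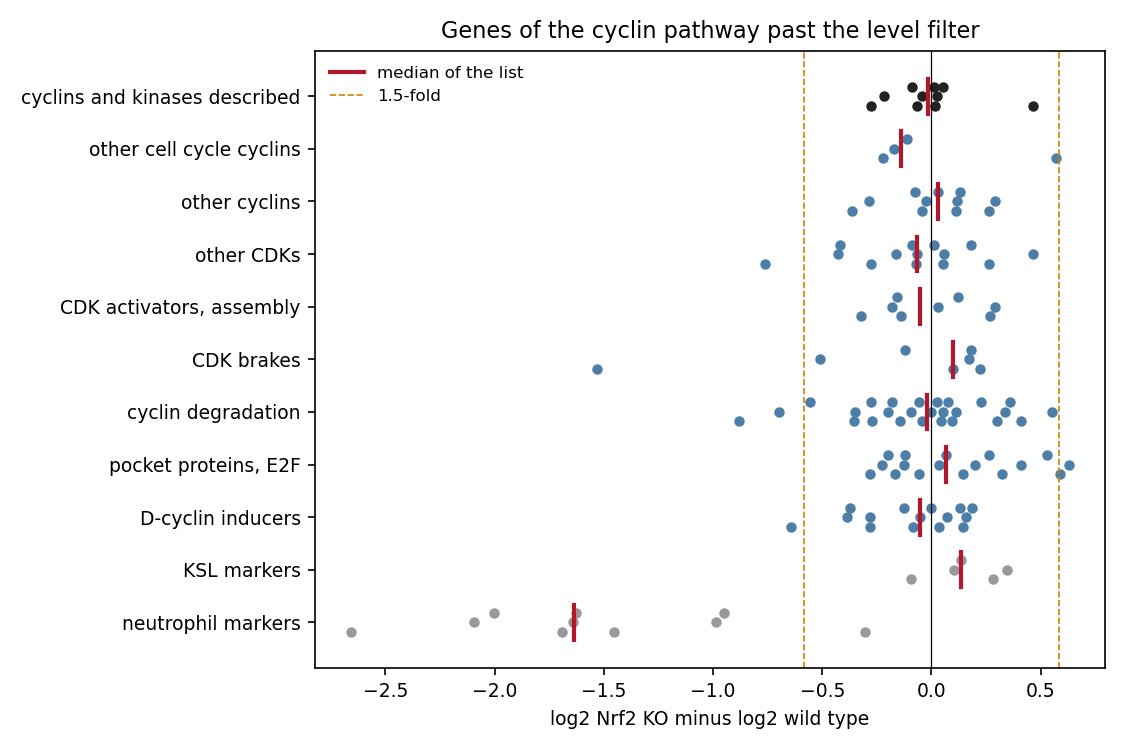
Difference between the Nrf2 KO and wild-type arrays (horizontal axis, log2) for each gene past the level filter, 1 point per gene, in the cyclins and kinases described (black), the lists of their pathway (blue) and the KSL and neutrophil markers (grey). Red bars are list medians and dashed lines mark 1.5-fold; pathway medians lie between −0.14 and 0.10, and the 10 neutrophil markers that passed, 3 of them only through wild type, lie below 0.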

How the data were processed

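The authors deposited 1 table of log2 intensities with 1 value per probe set and array, for 28853 probe sets and 2 arrays; the log base was inferred from the range of values, 2.40 to 13.79. RNA was extracted with an RNeasy microkit, per the labels' protocols, and amplified and labelled with NuGEN Ovation kits. Per the submitters' processing notes Partek was used, with no version or role. How background was corrected, arrays normalized and probes summarised is not given in the sources. When ranked, the 2 arrays' values lay within 0.09 of each other at every rank, so a change common to all genes would be hidden.

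The platform annotation gave the gene symbols, and probe sets with exactly 1 symbol were averaged per gene; the 10 genes described matched GRCm38.p6 by Entrez ID with 0 symbols changed. Several symbols were carried by 0 of their probe sets. An array has no read depth, and 1 array per genotype limits the precision. No test was run; genes were counted by size (0.32 on the log2 scale, 1.5-fold, 2-fold). Named genes were the 10, each pathway list's genes at least 1.5-fold apart and its 2 highest and 2 lowest differences past the filter. Cdk2, Ccnb1, Kit, Ly6a, Nfe2l2 and 6 of its targets were named too. Outside this rule, some cell type markers, Cdkn1a, Cdkn1b, Cdkn1c, Cdkn2a, Cdkn2b and E2f5 were also named. Genes picked or looked up after their values were seen are said to be so. The CCAAT box was added to the motifs later. The members and lists were chosen with earlier results of these data known. Alternatives were 3 normalizations, other level filters, the probe set with the highest mean and other sizes. The computation, with Python 3.11.15, numpy 2.4.6, pandas 2.3.3 and statsmodels 0.14.6, was tested on simulated data.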

Additional observations from a re-analysis of the deposited data

How the results depend on the processing

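No paired analysis was possible because each genotype had 1 array, and for the same reason no replicate could be left out. Under median centring, quantile normalization, loess on mean level, no level filter, a filter at the 75th percentile and the probe set with the highest mean, each of the 10 genes kept the sign of its difference wherever it passed, and the largest move of a difference was 0.04, that of Cdk6 under quantile normalization; Cdk6 ranged from 0.46 to 0.51, Cdk4 from −0.23 to −0.19 and Ccnd3 from −0.29 to −0.24. The level filters and the choice of probe set could not move the difference of any of the 10 genes, because each has 1 probe set. The 3 normalizations acted on arrays whose ranked values already lay within 0.09 of each other, so they could move little. The kept signs therefore say little about differences near 0. The stricter filter removed Ccne1 and Ccne2. The median over the 10 genes was −0.02 as reported, 0.00 under quantile normalization, 0.01 under loess and −0.04 without Cdk6, the last chosen after seeing the data. A smaller size, 0.32 on the log2 scale, counted 1 of the 10 genes in place of 0. Over all genes, 662 were at least 1.5-fold and 117 at least 2-fold apart; 182 were at least 2-fold apart with no filter, and 244 and 40 with the filter at the 75th percentile, which tests fewer genes. The median of the degradation list changed sign between settings, from −0.03 to 0.04. With no filter, the median of the other cell cycle cyclins was −0.02 in place of −0.14, and that of the brakes 0 in place of 0.10. The number of pocket protein and E2F genes at least 1.5-fold apart was 2, with 3 under no filter and 1 under median centring, the stricter filter or the highest probe set. The number of other kinases at that size was 1, but 3 with no filter and 0 with the stricter one, where Cdk7 did not pass; the brakes then had 0, without Cdkn2c, and the degradation list 1 in place of 2. With 1 array per genotype, no difference of the 10 genes, that of Cdk6 included, can be told from variation between pools or arrays. Differences of the size of Cdk4 and Ccnd3 also cannot be told from the scatter of genes at similar brightness. Of such genes, 22.7% lay as far from 0 as Cdk4, 33.3% as far as Ccnd3 and 3.54% as far as Cdk6. Cdk6 was singled out as the furthest of the 10.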

Other observations

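Some transcripts had exactly the same value in both arrays, among them 4 genes of the cyclin lists. Ube2c, which loads ubiquitin onto the anaphase-promoting complex, stood at 7.71 in the Nrf2 KO array and 7.71 in the wild-type array, and Mycn at 7.59 in the Nrf2 KO array and 7.59 in the wild-type array. Cdkn2b and Cdk15, below the level filter, had 5.82 and 5.03 in either array. Over all genes past the filter, 63 had a difference of exactly 0. These genes were picked after their values were seen.

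E2f6, a repressor of the E2F family, and the retinoblastoma gene Rb1, also picked after their values were seen, differed by 0.53 and 0.41, next below E2f3 and Mybl2 in their list. E2f5, at 6.99 in the Nrf2 KO array and 6.10 in the wild-type array, lay just under the level filter with a mean of 6.55. It is in no count of genes past that filter, but is 1 of the 3 genes of this list at least 1.5-fold apart with no filter.

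Cdkn1a, which encodes the CDK inhibitor p21, shared its probe set with another symbol and stood at 9.07 in the Nrf2 KO array and 9.30 in the wild-type array.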
